A study of Mus musculus with 8 samples.

Results

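Kpna2, its near-identical copy Gm10184 and 5 further importin genes (Kpna1, Kpna3, Kpna4, Kpna6 and Kpnb1) were followed through the comparison of NIK knockout (NIK KO) with wild-type (WT) macrophages. They are 7 of 13676 genes measured with PBS and of 14193 measured with IL-4, and all 7 were measured under both treatments. Kpna2 and Gm10184 were chosen by their values, since they have large and opposite genotype differences in both tables. Those values are given here as a description with no test. The other 5 were listed for belonging to the importin family, of which they are a part. Earlier results of these data were known when they were listed.

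Bone-marrow-derived macrophages came from female mice of 12 weeks, 2 WT and 2 NIK KO, and received PBS or interleukin 4 (IL-4, 20 ng/mL), the cytokine of alternative activation, for 6 hours. The 4 groups of 2 libraries were WT with PBS, NIK KO with PBS, WT with IL-4 and NIK KO with IL-4, and the sample titles carry the same 4 mouse numbers under both treatments. All cells had grown in medium conditioned by L929 cells, a source of M-CSF. The labels name neither the strain, nor the removed part of the NIK gene, nor the cells that lost it.

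Proteins too large to diffuse through the nuclear pore are carried by importins. An importin alpha, encoded by the Kpna genes, binds the nuclear localization signal of the cargo and then importin beta 1, encoded by Kpnb1, which docks at the pore. The small GTPase Ran, loaded with GTP in the nucleus, frees the cargo, and the exportin CAS, encoded by Cse1l, takes importin alpha back to the cytoplasm. NF-κB and STAT transcription factors, through which NIK and IL-4 act, are known cargoes of this route.

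Kpna2 (ENSMUSG00000018362, chromosome 11) and Gm10184 (ENSMUSG00000066878, chromosome 17) have almost the same transcript. Kpna2 has 11 exons in GENCODE M21, and Gm10184 has 1, so the copy holds the spliced message without introns. GENCODE M21 lists Gm10184 as protein-coding and RefSeq lists it as a pseudogene. Of 1590 coding bases, stop codon included, 2 differ, an identity of 99.87%. Counted from 1 at the first base of the start codon, the differences are A696G and C741T, with the base of Kpna2 first and that of Gm10184 last. Both lie at the third base of a codon (codons 232 and 247), and the 529 encoded amino acids have 0 differences. The stretch from coding base 666 to 771, which holds both differences, is shown because inside the coding sequence it is the one place where the pair can be told apart. It was read from the GENCODE M21 transcripts (build GRCm38), runs 5′ to 3′, and the capitals mark the 2 differing bases.
Kpna2: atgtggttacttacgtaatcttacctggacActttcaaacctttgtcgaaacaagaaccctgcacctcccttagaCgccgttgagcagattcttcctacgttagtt
Gm10184: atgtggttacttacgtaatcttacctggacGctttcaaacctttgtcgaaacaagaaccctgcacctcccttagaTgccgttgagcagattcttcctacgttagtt

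The longest transcripts are 2054 bases for Kpna2 and 1988 for Gm10184. Of the 31-base words of Kpna2, 92.7% also occur in Gm10184, and 148 do not. Of those 148 words, 62 cover the coding differences and 86 lie at the ends of the transcript. Gm10184 has 82 words that Kpna2 lacks, 62 at the coding differences and 20 at the ends. With longer windows, 91.3% of the 100-base windows of Gm10184 and 88.3% of its 150-base windows are identical in Kpna2. A read from such a window fits both genes equally.

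**Figure D1:**
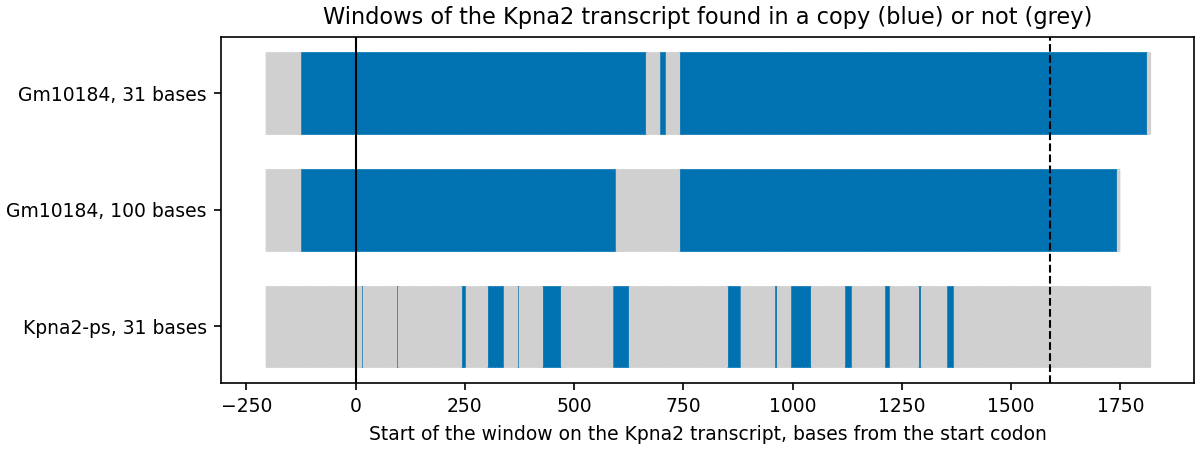
Windows of the Kpna2 transcript that occur unchanged in Gm10184 (31 and 100 bases) or in the pseudogene Kpna2-ps (31 bases), plotted by the start of the window in bases from the start codon; blue windows are found in the copy and grey ones are not, and the solid and dashed lines mark the start and the end of the coding sequence. For Gm10184 the grey windows lie at the coding differences and at the ends, while Kpna2-ps holds 13.7% of the words.

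GENCODE M21 has 8 genes, Gm10184 among them, that hold 5% or more of the 31-base words of Kpna2. Next to Gm10184 stands the processed pseudogene Gm10259 with 72.5% of the words, and it carries all 62 words at the coding differences in the form of Gm10184. Gm12919 holds 30.5% of the words, Gm13310 23.9% and Kpna2-ps 13.7%. Levels of copies other than Gm10184 were not analysed here. The remaining importins are far easier to separate: Kpna1, Kpna3, Kpna6 and Kpnb1 share 0 words with any other gene, and Kpna4 shares 0.717%.

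Map3k14, the gene of NIK, was examined as a check of the labels, and it stood higher in the libraries labelled NIK KO. Its mean normalized counts were 425 in WT and 902 in the libraries labelled NIK KO with PBS, and 418 and 832 with IL-4. In the authors' deposited table its difference was 0.99 ± 0.22 (log2 ± SE, 2 mice against 2) with IL-4, with a DESeq2 adjusted p of 0.00782. With PBS it was 1.09 ± 0.28 in the authors' deposited table and did not pass (DESeq2 adjusted p = 0.176). Reads outside the removed part would still count, so this gene does not settle the labels. If the direction of the tables were reversed, WT and NIK KO would change places in every value below. Macrophage markers were high in all groups. The 8 listed ones (Adgre1, Csf1r, Cd68, Itgam, Fcgr1, Mertk, Lyz2 and Cd14) summed to 628250 mean normalized counts in WT and 640925 in NIK KO with PBS, and to 491470 and 466033 with IL-4. Most of each sum was Lyz2, which with IL-4 stood at 370074 in WT against 318214 in NIK KO. With IL-4 5 of the 8 markers were higher in NIK KO and 3 lower. DESeq2 called 0 of the 8 with IL-4, where 0.125% of all genes were called. An unadjusted p under 0.05 was held by 1 marker, against 2.95% of all genes. That marker, Adgre1, was at 0.54 ± 0.18 in the authors' deposited table (DESeq2 p = 0.00320, adjusted p = 0.672). Fibroblast markers summed to 116 and 99.2 with PBS, and to 413 in WT against 141 in NIK KO with IL-4. Of the 7 fibroblast markers measured with IL-4, 6 were lower in NIK KO, and DESeq2 called 1 (Col3a1, 129 in WT against 25.6, adjusted p = 0.0107 in the authors' deposited table). An unadjusted DESeq2 p under 0.05 was held by 4 of the 7, all lower in NIK KO, against 2.95% of all genes. The part of the fibroblast markers in the importin values was not tested. In bulk samples, fewer cells of a type and less RNA per cell cannot be told apart.

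The tables give a mean over libraries and a fold change for each gene, so the level of each group of 2 mice was recovered, while values of single mice cannot be. Kpna2 is the importin alpha known to be abundant in dividing cells. With PBS it stood at 2140 mean normalized counts in WT and at 89.7 in the libraries labelled NIK KO. With IL-4 it stood at 2027 and 133. The 2 treatments were normalized in separate tables, so their levels are set side by side with no test. In both tables Kpna2 was therefore high in WT and low in NIK KO, at 0.0419 and 0.0656 of the WT level. Gm10184 had the opposite pattern. It was at 0.172 in WT and 2525 in NIK KO with PBS, and at 7.50 and 2599 with IL-4. Levels near 0, such as the 0.172, follow from a fitted fold change and are not observed means. In WT the copy was close to 0 under both treatments, and in NIK KO it reached the level that Kpna2 had in WT.

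In the authors' deposited table with PBS the log2 fold change was -4.58 ± 0.28 for Kpna2 and 13.84 ± 1.47 for Gm10184. In the authors' deposited table with IL-4 the values were -3.93 ± 0.25 and 8.44 ± 0.42. The size of the 2 values of Gm10184 is set by a WT level near 0, so they are no measure of a fold, and neither is their gap between treatments. These values chose the pair, so nothing is read from their place in the tables. An adjusted p under 0.05 was found for 0.0366% of the genes with PBS (5 of 13676) and 0.125% with IL-4 (17 of 13642 with an adjusted p), and Kpna2 and Gm10184 are among them in both tables.

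**Figure D2:**
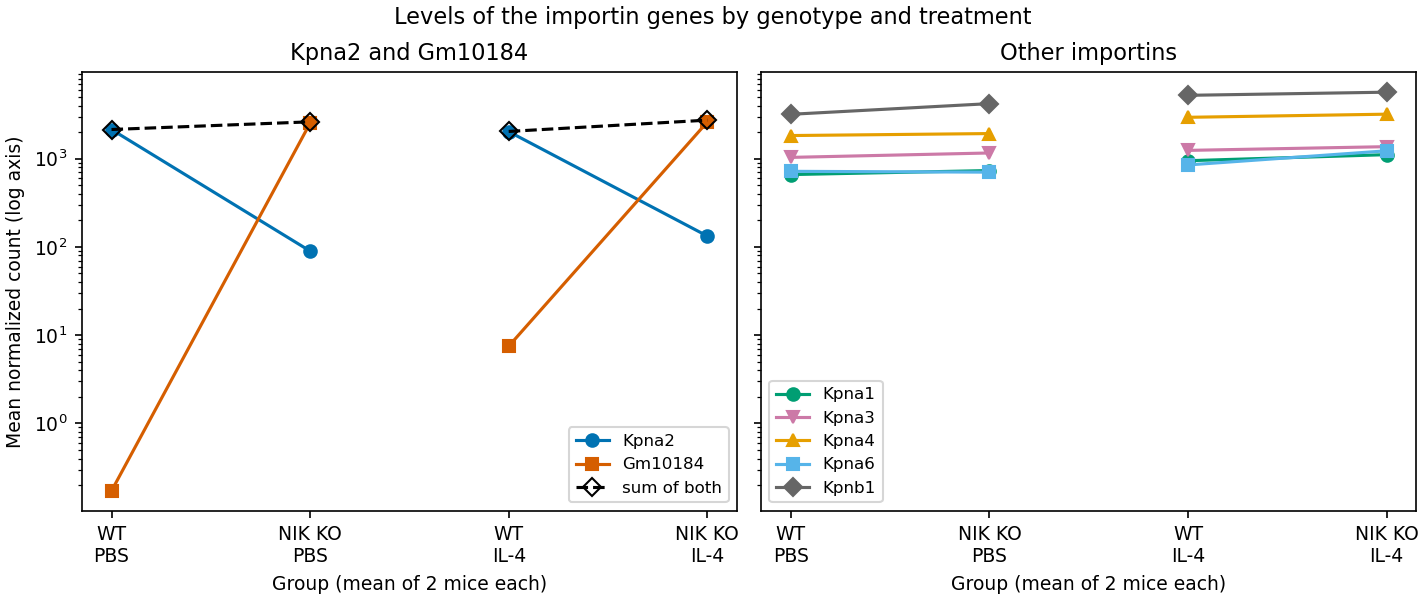
Mean normalized counts (log axis) of Kpna2, Gm10184 and their sum (left) and of the other 5 importins (right) in the 4 groups; each point is the mean of 2 mice as recovered from the authors' deposited tables, lines join the genotypes of a treatment, and no error per group can be had. Kpna2 and Gm10184 cross between the genotypes, for which they were chosen, and their sum lies between 2034 and 2732.

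The sum of Kpna2 and Gm10184 differed less between genotypes than either gene. The pair was chosen for its opposite values, so this is part of the choice and no separate finding. With PBS the WT sum was 2140 and the NIK KO sum 2614, which is 1.22 times as high (0.29 on the log2 scale). With IL-4 the WT sum was 2034 and the NIK KO sum 2732, which is 1.34 times as high (0.43 on the log2 scale). Kpna2 made up 99.99% of the sum in WT and 3.43% in NIK KO with PBS, and 99.6% and 4.86% with IL-4. With PBS, 2050 counts fewer of Kpna2 stood against 2524 more of Gm10184. With IL-4, 1894 fewer stood against 2592 more. The tables hold no error for a sum and the pair was chosen by its values, so the ratios carry no test. For scale, the 499 genes with a base mean within 1.2-fold of the sum had a median standard error of 0.25 with PBS, and the 613 such genes with IL-4 had one of 0.17. These are errors of single genes, and the error of the sum may differ from them.

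Genes of the G2 and M phases of the cell cycle, in which Kpna2 is known to be high, were measured beside the sum. Of 30 listed genes, 27 were lower in NIK KO with PBS (median log2 fold change -0.24) and 28 with IL-4 (median -0.17), against medians of -0.01 over all genes in both tables. DESeq2 called 0 of them in either table, where 0.0366% (PBS) and 0.125% (IL-4) of all genes were called. At an unadjusted p under 0.05 stood 0 with PBS and 1 with IL-4, where 1.24% and 2.95% of all genes did. That gene, Ube2c, an enzyme of mitotic exit, was at -0.42 ± 0.21 with IL-4 in the authors' deposited table (DESeq2 p = 0.0457, adjusted p = 0.999963). The summed pair thus stood on the opposite side of WT from most of these genes, and whether the 2 are related was not tested.

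The other importins alpha did not pass the test in either table. Kpna4 and Kpna3, known as the main carriers of NF-κB, had like levels in both genotypes. The WT and NIK KO levels of Kpna4 (ENSMUSG00000027782, chromosome 3) were 1828 and 1924 with PBS, and 2941 and 3192 with IL-4. Those of Kpna3 (ENSMUSG00000021929, chromosome 14) were 1034 and 1160 with PBS, and 1241 and 1368 with IL-4. Both genes were thus slightly higher in NIK KO under both treatments, by less than their errors. In the authors' deposited tables the log2 fold change of Kpna4 was 0.07 ± 0.25 (PBS) and 0.12 ± 0.16 (IL-4), with 95% intervals from -0.41 to 0.56 and from -0.20 to 0.44. In the authors' deposited tables Kpna3 was at 0.17 ± 0.28 and 0.14 ± 0.18, with 95% intervals from -0.38 to 0.71 and from -0.21 to 0.49. These intervals are no limit of detection, and changes inside them, and some beyond them, could go uncalled.

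Kpna1 and Kpna6, which are close relatives, had the lowest levels per length of the 5. Kpna1 (ENSMUSG00000022905, chromosome 16) went from 660 in WT to 733 in NIK KO with PBS, and from 948 to 1110 with IL-4. The authors' deposited tables give it 0.15 ± 0.29 and 0.23 ± 0.19. Kpna6 (ENSMUSG00000003731, chromosome 4) stood at 718 and 703 with PBS, and with IL-4 at 849 in WT against 1227 in NIK KO. It was the one of the 5 that passed an unadjusted p of 0.05, and only with IL-4. There the authors' deposited table gives 0.53 ± 0.21 (1.45-fold, 95% interval 0.12 to 0.95, DESeq2 p = 0.0123, adjusted p = 0.999963). With PBS its value in the authors' deposited table was -0.03 ± 0.30.

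Kpnb1, importin beta 1 (ENSMUSG00000001440, chromosome 11), had the highest level per length of the 5. Its level was 3181 in WT against 4202 in NIK KO with PBS, and 5219 against 5665 with IL-4. The authors' deposited tables give it 0.40 ± 0.25 with PBS (DESeq2 p = 0.115) and 0.12 ± 0.17 with IL-4 (DESeq2 p = 0.499). Both 95% intervals hold 0, from -0.10 to 0.90 and from -0.22 to 0.46.

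Of the 5 other importins, DESeq2 called 0 with PBS and 0 with IL-4, where 0.0366% and 0.125% of all genes were called. At an unadjusted p under 0.05 stood 0 of 5 with PBS, where 1.24% of all genes did, and 1 of 5 with IL-4, where 2.95% did. With PBS 4 of the 5 were higher in NIK KO (median 0.15) and with IL-4 all 5 were (median 0.14). Among all genes of base mean 100 or more, 4638 of 9266 were higher with PBS (median 0.0003) and 5021 of 9513 with IL-4 (median 0.01). The difference of the genotype effect between treatments was tested by a two-sided z test on the DESeq2 estimates, and p-values were adjusted (Benjamini-Hochberg) over the 13384 shared genes. The difference was called for 0 of the 5 and for 0.0149% of all genes, and 0 of the 5 had an unadjusted p under 0.05, against 0.867% of all genes. Kpna6 had the largest of these differences, 0.56 ± 0.37 (IL-4 minus PBS, adjusted p = 0.99988 in the z test on the DESeq2 estimates). Kpnb1 followed with -0.28 ± 0.31 (adjusted p = 0.99988), and Kpna1, Kpna3 and Kpna4 lay between -0.03 and 0.08.

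**Figure D3:**
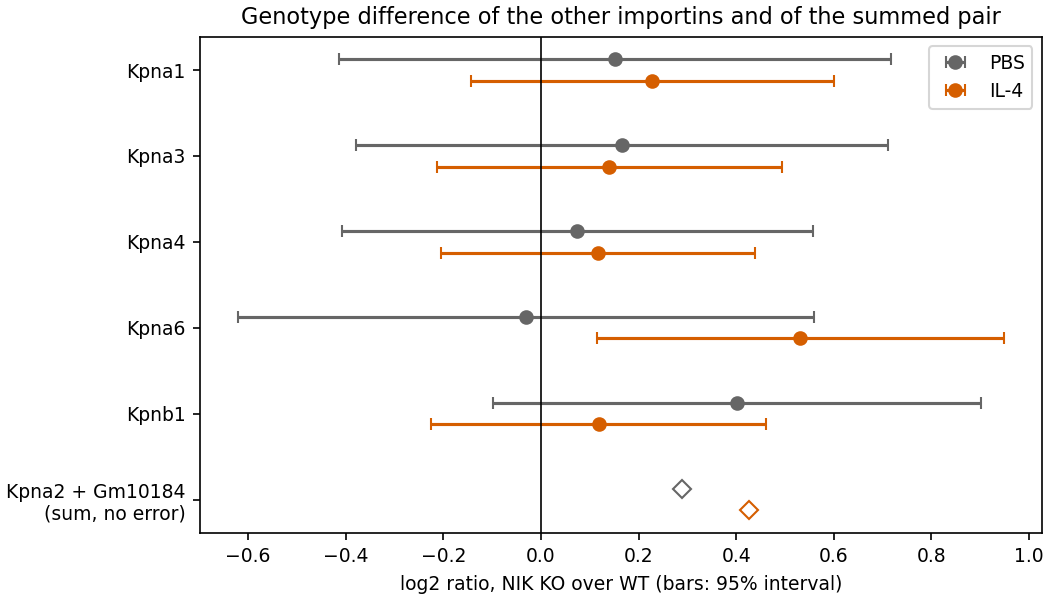
Log2 ratio of NIK KO over WT for the other 5 importins with 95% intervals, and for the summed Kpna2 and Gm10184 (open diamonds, with no error), with PBS in grey and IL-4 in orange. All intervals hold 0 apart from that of Kpna6 with IL-4, and the summed pair lies at 0.29 and 0.43.

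Per length, the summed pair had the highest value among the members in every group, and other importins beta were not put on this scale. Divided by the length of the longest GENCODE M21 transcript, WT levels with PBS were 1042 mean normalized counts per kilobase for the sum, 540 for Kpnb1, 254 for Kpna3, 207 for Kpna4, 131 for Kpna1 and 126 for Kpna6. In NIK KO with PBS the order was the same, from 1314 for the sum and 713 for Kpnb1 to 123 for Kpna6. With IL-4, WT levels per kilobase were 991 for the sum, 885 for Kpnb1, 334 for Kpna4, 305 for Kpna3, 188 for Kpna1 and 149 for Kpna6. In NIK KO with IL-4 the sum reached 1372, Kpnb1 961, Kpna4 362, Kpna3 336, Kpna1 220 and Kpna6 215. Kpna3 and Kpna4 thus changed places between the treatments. The tables hold no spread for a single level, and the transcripts in use in these cells are unknown, so neighbours in this order cannot be said to differ.

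The rest of the transport machinery was taken from a list of 60 further importins beta, exportins, Ran cycle genes and nucleoporins, of which 57 were measured with PBS and 58 with IL-4. DESeq2 called 0 of them in either table, where 0.0366% (PBS) and 0.125% (IL-4) of all genes were called. An unadjusted p under 0.05 was held by 1 of them with PBS and 1 with IL-4, both higher in NIK KO, against 1.24% and 2.95% of all genes. The medians were -0.02 with PBS and 0.02 with IL-4, near the -0.01 of all genes in both tables. Of the 7 exportins 4 were higher with PBS (median 0.08) and 5 with IL-4 (median 0.14). Nucleoporins had 10 of 29 higher with PBS (median -0.08) and 18 of 29 with IL-4 (median 0.09). For the other importins beta 5 of 10 and 4 of 11 were higher, and for the Ran cycle 5 of 11 and 4 of 11.

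Among the transport genes named for their known roles, Ran was the gene under 0.05 unadjusted with PBS. Its level was 3673 in WT against 5188 in NIK KO with PBS, and 5321 against 4798 with IL-4. The authors' deposited tables give Ran 0.50 ± 0.25 with PBS (DESeq2 p = 0.0496, adjusted p = 0.999994) and -0.15 ± 0.17 with IL-4. Cse1l, which returns importin alpha to the cytoplasm, was at -0.05 ± 0.29 and 0.17 ± 0.19 in the authors' deposited tables. Nup50, a mobile nucleoporin that helps to free cargo from importin alpha, was at -0.08 ± 0.27 and 0.14 ± 0.21 in the authors' deposited tables. Ranbp1, a regulator of Ran, was at -0.21 ± 0.33 and -0.14 ± 0.20, and the exportin Xpo1 at 0.08 ± 0.27 and -0.07 ± 0.17, in the authors' deposited tables. None of these passed.

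Among the genes of largest statistic in their lists, Ipo9, an importin beta, was the 1 gene under 0.05 unadjusted with IL-4, at 0.42 ± 0.21 (DESeq2 p = 0.0479, adjusted p = 0.999963) against -0.10 ± 0.29 with PBS in the authors' deposited tables. Ipo4 was at -0.27 ± 0.31 and -0.30 ± 0.23, and the exportin Xpo6 at 0.12 ± 0.29 and 0.35 ± 0.18, in the authors' deposited tables. Xpot, the tRNA exportin, was at 0.25 ± 0.27 and -0.01 ± 0.20, and Rangrf at -0.06 ± 0.64 and -0.65 ± 0.51, in the authors' deposited tables. For the nucleoporins the authors' deposited tables give Nup35 -0.52 ± 0.36 and 0.17 ± 0.32, and Gle1 0.37 ± 0.30 and 0.07 ± 0.23. Nup54 was at -0.25 ± 0.32 and 0.35 ± 0.23 and Nup210 at -0.33 ± 0.75 and 1.00 ± 0.57 in the authors' deposited tables. The values of a gene are given with PBS first and IL-4 second, and apart from Ipo9 with IL-4 none of them passed even unadjusted.

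**Figure D4:**
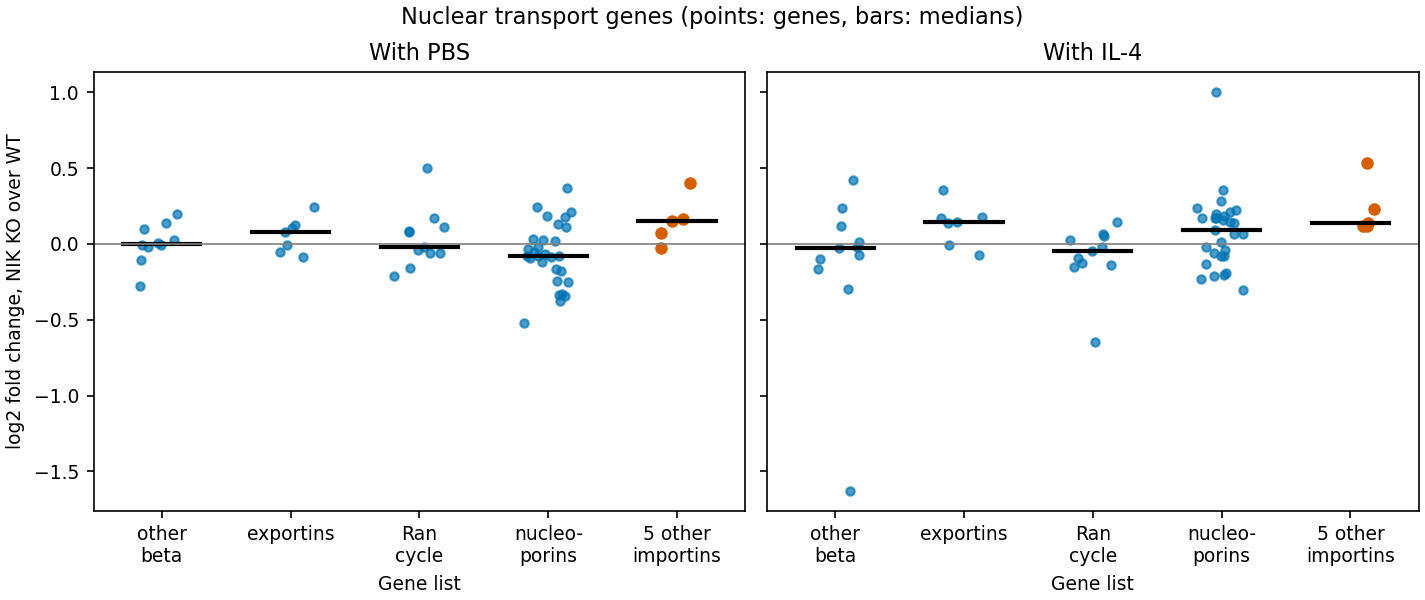
Log2 fold change of NIK KO over WT for the nuclear transport genes (blue points, 1 per gene) and the other 5 importins (orange points) with PBS (left) and IL-4 (right); black bars are medians. List medians lie between -0.08 and 0.15, and the lowest point with IL-4 is Ranbp17, a gene of base mean 2.50.

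The genes nearest in pattern to Kpna2 and Gm10184 are named as a description, since the pair was chosen by the same fold changes. Likeness was measured as the Euclidean distance between the pairs of log2 fold changes (PBS and IL-4) over the 9148 genes of base mean 100 or more in both tables. Nearest to Kpna2 was Gdf3, a factor of the TGF-β family, at a distance of 3.95, followed by Gm5601 at 4.53 and Nnt, the mitochondrial transhydrogenase, at 4.62. Gdf3 was at -1.43 ± 0.32 (PBS) and -1.56 ± 0.31 (IL-4) in the authors' deposited tables. Gm5601 was at -3.25 ± 3.45 and 0.40 ± 1.74 there, so with IL-4 it was not lower in NIK KO as Kpna2 was. Nnt was at -0.83 ± 3.27 and -1.23 ± 0.35 in the authors' deposited tables. The values of Gm5601 in both tables, and that of Nnt with PBS, were smaller than their errors. The distances from Gm10184 are set by its WT level near 0, and nearest to it were Iigp1 at 14.5, Gm42715 at 14.6 and Gm4951 at 14.7. Mean normalized counts under 1 in 1 genotype and over 100 in the other were found with PBS for Gm10184, Rpl10a-ps1 and Pgam1-ps2, and with IL-4 for Pgam1-ps2. For 0 genes was this so in the same direction in both tables, and Gm10184 itself met it with PBS alone, its WT level with IL-4 being 7.50. Pgam1-ps2, all of whose words (100%) are in Pgam1, was at 530 in WT against near 0 in NIK KO with PBS, but at 0.180 in WT against 144 in NIK KO with IL-4.

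**Figure D5:**
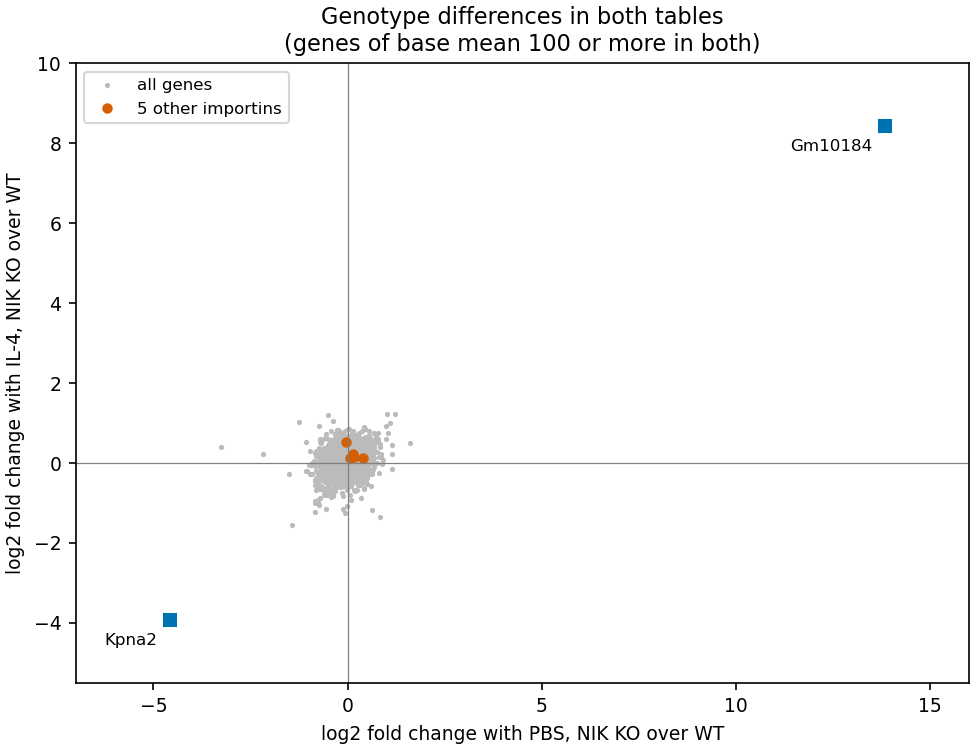
Log2 fold change of NIK KO over WT with PBS (x axis) against IL-4 (y axis), from tables that share their mice, for the 9148 genes of base mean 100 or more in both; grey points are all genes, orange points the other 5 importins, and blue squares Kpna2 and Gm10184. Kpna2 (-4.58 and -3.93) and Gm10184 (13.84 and 8.44) are the genes chosen by these values, and the other importins lie among the grey points.

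Kpna2 and Kpnb1 lie on chromosome 11, as Map3k14 does. Between Map3k14 and Kpna2, in the gene order of GENCODE M21, 37 measured genes lie with PBS and 39 with IL-4. DESeq2 called 0 of them in either table, and 2 in each (5.41% with PBS and 5.13% with IL-4) had an unadjusted p under 0.05, against 1.24% and 2.95% of all genes. Their median log2 fold change was -0.00053 with PBS and 0.06 with IL-4. The part of this location in the values of Kpna2, and that of the division of shared reads between Kpna2 and Gm10184, was not tested.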

How the data were processed

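RNA of 8 libraries (4 groups of 2 mice) was measured, and the authors deposited 2 tables of results per gene, 1 for each treatment, each comparing genotypes over 4 libraries. According to the submitters' processing notes, the tools were DESeq2 1.32.0 and Salmon 1.4.0, and the build was GRCm39; how each was run is not given in the sources used. The columns, per the file headers, hold the authors' base mean, a signal averaging counts divided by size factors, a log2 fold change and its standard error, the Wald statistic (a score), and the p-value with its adjusted p-value. The depth of each library is unknown, since the deposited values are 1 per gene and comparison. Base means summed to 1.42e+07 (PBS) and 1.66e+07 (IL-4). Genes of base mean 100 or more had a median standard error of 0.30 (PBS) and 0.22 (IL-4).

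Genes with a deposited adjusted p under 0.05 count as called. DESeq2 left 551 genes without an adjusted p with IL-4. The direction, NIK KO over WT, is read from the title of the table for IL-4 and was applied to both. Group means were recovered from base mean and the fitted fold change, the groups being of equal size, so recovered levels near 0 are imprecise. A 95% interval is the fold change ± its standard error times the normal quantile. P-values measure the spread between 2 mice a group. The z test between treatments takes errors as independent although mice are shared. Sequences came from GENCODE M21 (GRCm38), not the authors' build, so no coordinates are printed. A symbol listed more than once was taken at its higher base mean. Genes were named by rule: the members, Map3k14, partners (Cse1l, Ran, Ranbp1, Nup50, Xpo1), cargoes (Rela, Nfkb1, Stat6), called genes or the 2 of largest statistic in each list and table, and the 3 nearest in pattern. Markers of erythroid cells, neutrophils, B and T cells were also listed. The members and lists were chosen with earlier results of these data known. Python 3.11.15, numpy 2.4.6, pandas 2.3.3, scipy 1.17.1 and biopython 1.88 were used. For the recovery of group means only the arithmetic was checked. Base mean and fold change were computed exactly from made-up means, so recovery was fixed in advance and fitted fold changes were not covered. The z test was tried on simulated data. The simulated errors were independent, so the sharing of mice was not covered, and the other steps were not simulated.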

Additional observations from a re-analysis of the deposited data

How the results depend on the processing

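The alternatives were another threshold (0.1), genes of base mean 100 or more, no filter, a t distribution with 2 degrees of freedom, centring on the median gene, transcript length and another summary. Of 29 alternative values over 9 results, 27 kept their count or stayed within a tolerance. For the sum this was the median standard error of genes of like base mean (0.25 with PBS, 0.17 with IL-4), and for the median of the other importins their SD (0.16 and 0.18). A mean weighted by the errors gave 0.16 and 0.20 in place of that median. The other 2 values moved, which the choice of the pair by its values had fixed in advance. Kpna2 taken alone, without Gm10184, gave a log2 ratio of -4.58 with PBS and -3.93 with IL-4. The sum gave 0.29 and 0.43. Per transcript length the ratio of the sum was 0.33 and 0.47, and centred 0.29 and 0.41. Counts of called importins and transport genes were 0 in all these settings. Their lowest DESeq2 adjusted p was 0.999994 with PBS and 0.999963 with IL-4, so another threshold or filter could hardly move these counts. Under the t distribution, too, no other outcome was likely with such wide tails. No paired analysis was possible because the tables hold 1 value per gene and comparison, and for the same reason leaving out each replicate was not run. The sum has no error of its own, and values of single mice cannot be seen. The 95% intervals of the importins are no limit of detection, since differences inside them, and some beyond them, could go uncalled. Kpna6 with IL-4 was not called although its interval, from 0.12 to 0.95, leaves out 0. Map3k14 with PBS was at 1.09 ± 0.28 in the authors' deposited table and was not called either (DESeq2 adjusted p = 0.176).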

Other observations

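The NF-κB and STAT genes, whose proteins importins alpha carry, were also measured. Of 9 listed genes DESeq2 called 0 in either table, where 0.0366% (PBS) and 0.125% (IL-4) of all genes were called. With PBS 4 were higher in the libraries labelled NIK KO (median -0.02) and with IL-4 5 were (median 0.18). At an unadjusted p under 0.05 stood 0 with PBS and 1 with IL-4, where 1.24% and 2.95% of all genes did. That gene was Stat3, at 0.37 ± 0.17 with IL-4 (DESeq2 p = 0.0310, adjusted p = 0.999963) and 0.19 ± 0.27 with PBS in the authors' deposited tables. Stat6, the factor IL-4 activates, was at -0.12 ± 0.25 (PBS) and 0.19 ± 0.16 (IL-4), and Rela at -0.02 ± 0.25 and 0.18 ± 0.19, in the authors' deposited tables. The authors' deposited tables give Nfkb1 -0.10 ± 0.28 and -0.03 ± 0.20, Nfkb2 -0.51 ± 0.34 and -0.13 ± 0.25, and Stat2 0.02 ± 0.26 and 0.24 ± 0.16.

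Markers of other cell types were low. With IL-4 the erythroid markers summed to 236 mean normalized counts in WT and 100.2 in NIK KO, those of neutrophils to 242 and 173, of B cells to 44.5 and 18.0, and of T cells to 12.7 and 9.71. Of the 4 erythroid markers measured with IL-4, 3 were lower in NIK KO and 1 higher. All 3 lower ones had an unadjusted DESeq2 p under 0.05, against 2.95% of all genes, and DESeq2 called 0 of the 4, against 0.125% of all genes. With PBS the sums, in the same order, were 66.8 and 69.4, 224 and 203, 7.11 and 7.42, and 14.9 and 12.6. Their part in the values of the importins was not tested.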
